A study of Mus musculus with 10 samples.

Results

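The genes described here are the amino acid transporters of the mouse kidney and their nearest relatives. They were chosen by name, as every protein-coding gene of the solute carrier families Slc1, Slc3, Slc6, Slc7, Slc15, Slc16, Slc36, Slc38 and Slc43. The rule found 83 of the 54532 genes of the deposited table, which holds 22046 protein-coding genes. Slc6 gave 21 of them, Slc7 16, Slc16 14, Slc38 11, Slc1 7, Slc15 5, Slc36 4, Slc43 3 and Slc3 2. One of the 83, Slc7a6os, carries the name of its neighbour Slc7a6 without being a transporter, and it is kept in the counts.

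The kidney filters free amino acids and small peptides into the urine and takes nearly all of them back in the proximal tubule. Carriers of the brush border draw them in from the lumen, mostly with sodium or protons, and other carriers of the basolateral membrane let them out to the blood. Several carriers work as pairs, in which a heavy chain from the Slc3 family brings a light chain from the Slc7 family to the membrane, and defects in these genes are known from inherited losses of amino acids in urine. Other members feed growing cells, load lysosomes, or carry taurine, creatine and lactate.

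Each library came from the obstructed left kidney of a wild-type male C57BL/6 mouse, whose ureter was double ligated (UUO, unilateral ureteral obstruction) when it was 8 weeks old and which was killed 14 days later. In the DMM group, 5 mice received dimethyl malonate, an ester prodrug that blocks succinate dehydrogenase, at 40 mg/kg into the peritoneum every other day. The 5 control mice, called PBS here, had the same obstruction and were given PBS every other day. Every kidney was obstructed, so the comparison says nothing about what obstruction does. Total counts were 16457495 to 18078777 in PBS libraries and 15722527 to 19475833 in DMM libraries.

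Not every library sits with its group. The authors' own table of group means gives no weight to PBS replicate 3 or to DMM replicate 1, so those means rest on 8 libraries. The paper speaks of 5 replicates, and the sources used here give no reason for the weights. Which libraries the deposited fold changes rest on was not tested. Over all genes, PBS replicate 3 was about as like DMM replicate 2 (r = 0.987 across genes on log2 counts) as PBS replicate 1 (r = 0.986). DMM replicate 1 was most like PBS replicate 5 (r = 0.993), and its highest r with a DMM library was 0.977. DMM replicate 4 stood apart from all others, with a highest r of 0.933. Calls and list medians are therefore given over the 8 libraries of the authors' table and over all 10. The 2 sets share 8 libraries, so neither checks the other independently.

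The tissue carried the RNA of a kidney. Markers of the proximal tubule and the loop of Henle were detected, among them Lrp2 at 52.8 FPKM and Umod at 862, whereas the fat markers Adipoq and Plin1 stood at 1.13 and 0.171 FPKM. FPKM is the deposited count divided by gene length and library size, the scale used here to compare genes with each other. The transporters themselves took 0.339% to 0.525% of all counts in a library.

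Among the transporters, the highest mean level over the 10 libraries was that of Slc3a1, the heavy chain of the cystine carrier, at 96.8 FPKM. The next were the taurine carrier Slc6a6 at 66.0, the brush border carrier of neutral amino acids Slc6a18 at 53.6 and the light chain Slc7a13 at 44.6 FPKM. Their order is loose, since Slc7a13 alone ranged from 3.76 to 122 FPKM between mice. A mean of at least 10 FPKM was reached by 25 members and one of at least 1 FPKM by 53. At the other end, 10 had at most 3 counts in every library, among them Slc6a3, Slc6a7, Slc6a11, Slc6a16, Slc6a21, Slc7a10, Slc7a14, Slc38a5 and Slc38a8. With Slc1a6, Slc1a7, Slc6a2, Slc6a5, Slc6a12, Slc6a14, Slc7a15, Slc15a5 and Slc36a3, which reached at most 22 counts, they make 19 members too low to be tested. The other 64 were tested in both sets of libraries.

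Over the 8 libraries, transporter transcripts were higher with DMM more often than genes at large. The comparison asks what the inhibitor changed in an obstructed kidney. By edgeR, 15 of the 64 tested members rose (23.4%), that is, had an adjusted p below 0.05 and more than a 1.5-fold difference, where 2.73% of the 16550 genes tested rose. Only Slc15a3 fell, while 3.56% of all tested genes did. The median log2 fold change of DMM over PBS was 0.32 in the members and 0.02 in all tested genes.

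The members that rose were Slc1a1, Slc3a1, Slc6a17, Slc6a18, Slc6a19, Slc6a20b, Slc7a7, Slc7a12, Slc16a4, Slc16a5, Slc16a7, Slc16a9, Slc16a12, Slc16a14 and Slc38a3. Most of these are carriers of the proximal tubule, the segment that reclaims amino acids, or monocarboxylate carriers. The values of the groups did not overlap for 22 members on the higher side (9.45% of all tested genes) and for 2 on the lower side (10.6%). Slc1a4, Slc6a8 and Slc43a2 passed the adjusted p but not the fold change of 1.5. Summed over all 83 members, the normalized counts (CPM, counts scaled to library size) were 3618, 3677, 4689, 3257 and 3605 in PBS kidneys 1 to 5 and 3459.5, 4561, 5018, 4541 and 5364 in DMM kidneys 1 to 5. The sums of PBS kidney 3 and DMM kidney 1 thus lay among those of the other group.

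Over all 10 libraries no member passed. The counts were 0 higher and 0 lower by DESeq2, where 14 of all genes were higher and 36 lower. These are 0.0454% and 0.117% of the 30851 genes with any count. By edgeR the counts of members were also 0 and 0, and 0.0% of the 16505 genes tested passed in either direction. The smallest adjusted p of a member was 0.378. Past 1.5-fold at an unadjusted p below 0.05, 5 members were higher (1.91% of all tested genes) and 1 lower (4.11%), against 19 higher (6.45%) and 2 lower (7.24%) over the 8. The 5 were Slc6a15, Slc7a12, Slc16a5, Slc16a14 and Slc38a3, and the 1 was Slc15a3. The groups did not overlap for 1 member, Slc6a15, on the higher side (0.794%) and for 0 on the lower side (1.16%). The members' median was 0.20 on the log2 scale, beside 0.02 in all tested genes. All 15 members that rose over the 8 libraries had positive values over the 10.

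The distance between these results lies in the 2 libraries. PBS kidney 3 had more of the transcript than every other PBS kidney for 15 of the 15 members that rose, and it lay within or above the range of the other DMM kidneys for 13. DMM kidney 1 had less than every other DMM kidney for 15 and lay within the range of the other PBS kidneys for 14. This was not particular to transporters. Of all 452 genes that rose over the 8 libraries, PBS kidney 3 was above the other PBS kidneys for 437, and DMM kidney 1 below the other DMM kidneys for 442. Of all 590 genes that fell over the 8 libraries, PBS kidney 3 was below the other PBS kidneys for 368. It reached the range of the other DMM kidneys for 84 of these (14.2%), against 325 (71.9%) of those that rose. DMM kidney 1 was above the other DMM kidneys for 586 of the genes that fell. Why these 2 kidneys resemble the other group, PBS kidney 3 mainly in genes that rose, was not tested.

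The counts also depended on single libraries among the 8. The number of members that rose was 5 without PBS replicate 5 (0.774% of all tested genes), 7 without PBS replicate 4 (0.952%) and 8 without DMM replicate 3 (1.10%). It was 9 without PBS replicate 1 (1.34%), 9 without DMM replicate 5 (0.995%) and 11 without PBS replicate 2 (1.17%). Without DMM replicate 4 it was 21 (6.71%), adding Slc1a4, Slc6a4, Slc6a13, Slc7a9, Slc7a13 and Slc16a13, and 3 members were lower (7.61%), adding Slc7a2 and Slc36a2. Without DMM replicate 2 it was 13 (2.23%), with 2 lower (3.38%). The calls of all genes thus went down and up along with those of the members. The 6 members that passed whichever library was left out were Slc1a1, Slc3a1, Slc16a4, Slc16a9, Slc16a14 and, on the lower side, Slc15a3. They comprise a heavy chain, a glutamate carrier, 3 monocarboxylate family carriers and a lysosomal peptide carrier. How many of all tested genes passed in each of these fits was not counted, so the 6 cannot be set against genes at large. Over all 10, leaving out DMM replicate 1 gave 1 lower member, Slc15a3 (2.60% of all tested genes). Scaling by library size alone moved the median of all genes from 0.02 to -0.09. Under it 10 members rose, and 1.67% of all tested genes did, fewer than the 2.73% above. The calls of Slc6a17, Slc7a7, Slc16a5, Slc16a7 and Slc16a12 were lost with it. With the replicate number as a block, 0 of the members and 0 of all genes passed over the 8.

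**Figure D1:**
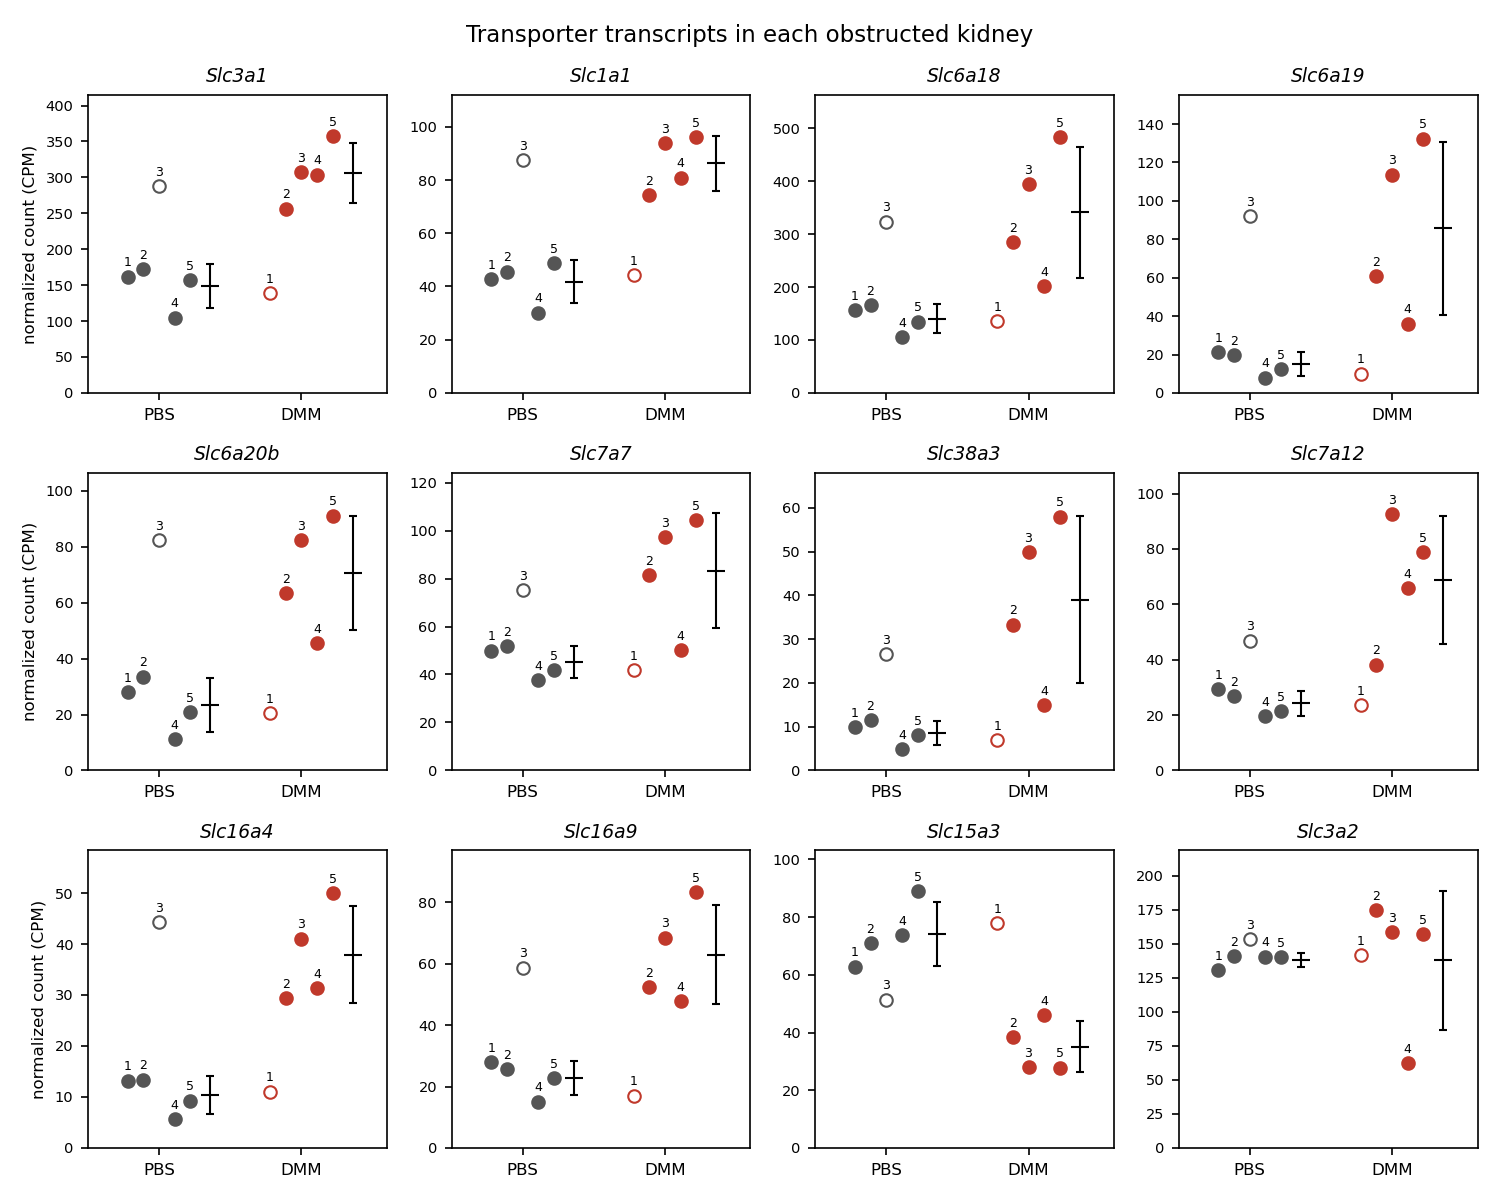
Normalized counts (CPM, linear axis from 0) of 12 transporter genes in each obstructed kidney, numbered by replicate within the PBS (grey) and DMM (red) groups; open points are the 2 libraries with a weight of 0 in the authors' means, and bars give mean ± SD of the 4 others. For Slc3a1, the open PBS point at 288 lies among the DMM kidneys and the open DMM point at 139 among the PBS kidneys.

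Of the 2 heavy chains, Slc3a1 encodes the partner that takes Slc7a9 and Slc7a13 to the brush border and is a gene of cystinuria (ENSMUSG00000024131, chromosome 17, 85028347 to 85064243, build mm10). Its CPM were 162, 172, 288, 105 and 157 in PBS kidneys 1 to 5 and 139, 257, 307, 304 and 358 in DMM kidneys 1 to 5. Apart from PBS kidney 3 and DMM kidney 1, every DMM kidney was above every PBS kidney. Slc3a1 rose over the 8 libraries, with a log2 fold change of 1.04 ± 0.18 (SE, 4 mice against 4, adjusted p = 0.0112). Over all 10 it was 0.63 ± 0.29 (SE, 5 against 5, adjusted p = 0.459). It overlaps Prepl on the opposite strand.

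Slc3a2 encodes the other heavy chain, which serves the basolateral light chains and those of growing cells (ENSMUSG00000010095, chromosome 19, 8706882 to 8723369). Its CPM were 130.4, 141, 153, 140.4 and 140.2 in PBS kidneys 1 to 5 and 141, 174, 158, 62.2 and 157 in DMM kidneys 1 to 5. DMM kidney 4 had the least Slc3a2 of any kidney, and the other 9 lay close together. Its log2 fold change came to -0.00 ± 0.28 over the 8 libraries and -0.02 ± 0.23 over all 10, and it was positive in both sets without DMM replicate 4 and over the 8 with DESeq2, RLE scaling or protein-coding genes alone. Without DMM replicate 4 the value over the 8 was 0.24 with an adjusted p of 0.0191, under the fold threshold. With all 8 or all 10 libraries no difference in Slc3a2 was detectable.

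The brush border carriers were the group of transporters with the highest median. Of 8 tested, 4 rose over the 8 libraries (Slc1a1, Slc6a18, Slc6a19 and Slc6a20b) and 0 fell, and the median log2 fold change was 1.16, or 0.71 over all 10. They take up amino acids from the tubular fluid. Their summed CPM were 363, 377, 855, 204 and 292 in PBS kidneys 1 to 5 and 291, 709.9, 883, 524 and 1169.8 in DMM kidneys 1 to 5. Bulk RNA cannot tell fewer proximal tubule cells from less of these transcripts in each cell.

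Slc6a19 is the main sodium-coupled carrier of neutral amino acids in the brush border and the gene of Hartnup disorder (ENSMUSG00000021565, chromosome 13, 73679745 to 73704865). Its CPM were 21.2, 19.5, 92.1, 7.87 and 12.4 in PBS kidneys 1 to 5 and 9.94, 60.6, 114, 36.1 and 132 in DMM kidneys 1 to 5. The spread within the DMM group was wide, from the DMM kidney 1 value, which lay among the PBS kidneys, to that of DMM kidney 5. Slc6a19 rose over the 8 libraries by a log2 fold change of 2.49 ± 0.46 (SE, 4 mice against 4, adjusted p = 0.0147), the largest of any member. Its adjusted p was 0.0640 without PBS replicate 5, the one library whose removal ended the call. Over all 10 the value was 1.20 ± 0.75 (SE, 5 against 5, adjusted p = 0.547).

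Slc6a18, its neighbour on chromosome 13, carries glycine and other neutral amino acids in the same membrane (ENSMUSG00000021612, chromosome 13, 73661752 to 73678023). Its CPM were 157, 166, 323, 105 and 134 in PBS kidneys 1 to 5 and 136, 285, 395, 202 and 483 in DMM kidneys 1 to 5. Of DMM kidneys 2 to 5, kidney 4 was the lowest, and PBS kidney 3 lay above it. Slc6a18 rose by 1.28 ± 0.27 (SE, 4 mice against 4, adjusted p = 0.0253) over the 8 libraries, and the value over all 10 was 0.76 ± 0.37 (SE, 5 against 5, adjusted p = 0.488). The call held without DMM replicate 2 or DMM replicate 4 but was lost without any of the 6 others, with adjusted p of 0.0608 to 0.0939.

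Slc6a20a and Slc6a20b are a pair of mouse genes that match the single human carrier of proline and related imino acids, and they lie side by side on chromosome 9. For Slc6a20b (ENSMUSG00000025243, chromosome 9, 123590800 to 123632565) the CPM were 28.01, 33.5, 82.4, 11.2 and 20.8 in PBS kidneys 1 to 5 and 20.4, 63.3, 82.3, 45.4 and 91.2 in DMM kidneys 1 to 5. Slc6a20b rose by 1.59 ± 0.34 (SE, 4 mice against 4, adjusted p = 0.0261, and 0.78 ± 0.51 over all 10, adjusted p = 0.562) over the 8, a call lost without DMM replicate 3, DMM replicate 5, PBS replicate 1 or PBS replicate 5, with adjusted p of 0.0620 to 0.0976. Its twin did not pass. The log2 fold change of Slc6a20a was 0.28 ± 0.20 (SE, 4 mice against 4, adjusted p = 0.463, and 0.24 ± 0.17 over all 10, adjusted p = 0.572), with CPM between 19.3 and 35.6 in every kidney. Each of the 2 overlaps other genes on the opposite strand (Sacm1l for Slc6a20b, Ccr9 and Gm47173 for Slc6a20a), and the strand setting of the counts is not given in the sources used here.

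Slc1a1 takes up glutamate and aspartate, and its defects cause dicarboxylic aminoaciduria (ENSMUSG00000024935, chromosome 19, 28835049 to 28913960). Its CPM were 42.8, 45.5, 87.5, 30.2 and 48.8 in PBS kidneys 1 to 5 and 44.2, 74.2, 93.8, 80.9 and 96.04 in DMM kidneys 1 to 5. The 4 DMM kidneys other than kidney 1 stood close together and above all PBS kidneys but kidney 3. Slc1a1 rose by 1.04 ± 0.17 (SE, 4 mice against 4, adjusted p = 0.00909) over the 8 libraries, whichever library was left out, and the value over all 10 was 0.61 ± 0.28 (SE, 5 against 5, adjusted p = 0.462). It overlaps 4430402I18Rik on the opposite strand.

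The light chains that pair with Slc3a1 did not pass by edgeR. Slc7a9, which exchanges cystine and dibasic amino acids, had CPM of 32.8, 33.7, 53.9, 18.4 and 30.1 in PBS kidneys 1 to 5 and 30.9, 53.6, 71.7, 32.6 and 77.99 in DMM kidneys 1 to 5, and its log2 fold change was 1.04 ± 0.29 (SE, 4 mice against 4, adjusted p = 0.0665, and 0.66 ± 0.32 over all 10, adjusted p = 0.485) over the 8 libraries. DMM kidney 4 lay within the PBS range. Slc7a13, a light chain that carries acidic amino acids and cystine in the last part of the proximal tubule, had CPM of 58.4, 55.6, 193, 8.09 and 16.6 in PBS kidneys 1 to 5 and 24.6, 152, 90.8, 99.7 and 262 in DMM kidneys 1 to 5. The PBS kidneys themselves differed widely, with PBS kidneys 4 and 5 far below 1 and 2, and the log2 fold change was 2.12 ± 0.63 (SE, 4 mice against 4, adjusted p = 0.0787, and 0.93 ± 0.78 over all 10, adjusted p = 0.636). DESeq2 passed both over the 8 libraries, with log2 fold changes of 1.04 and 2.13. Without DMM replicate 4 both passed by edgeR too, at 1.24 and 2.28.

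One brush border carrier pointed the other way. Slc36a2 brings in glycine and proline with protons and is a gene of iminoglycinuria. It was scarce, at a mean of 0.542 FPKM, with CPM of 2.54, 2.53, 1.63, 2.98 and 1.71 in PBS kidneys 1 to 5 and 2.59, 1.76, 0.623, 0.725 and 0.669 in DMM kidneys 1 to 5. DMM kidneys 3, 4 and 5 were below every PBS kidney, and kidneys 1 and 2 were not. Its log2 fold change was -1.37 ± 0.39 (SE, 4 mice against 4, adjusted p = 0.0740) over the 8 libraries and -0.84 ± 0.42 (SE, 5 against 5, adjusted p = 0.495) over all 10, so it did not pass by edgeR, though it did by DESeq2 over the 8. It also passed by edgeR without DMM replicate 2 or DMM replicate 4, at -1.86 and -1.27.

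Of the 5 basolateral carriers tested, 2 rose over the 8 libraries (Slc7a7 and Slc38a3) and 0 fell. The median log2 fold change was 0.57, and 0.36 over all 10, and all 5 values were positive in both sets. Slc38a3 brings glutamine into proximal tubule cells, where it feeds ammonia production (ENSMUSG00000010064, chromosome 9, 107650634 to 107669530). Its CPM were 9.85, 11.5, 26.5, 4.84 and 7.9998 in PBS kidneys 1 to 5 and 6.85, 33.3, 49.9, 14.9 and 57.99 in DMM kidneys 1 to 5. DMM kidneys 3 and 5 were the highest, and DMM kidney 4 was nearer to PBS kidney 2 than to either of them. Slc38a3 rose by 2.19 ± 0.42 (SE, 4 mice against 4, adjusted p = 0.0185) over the 8, and the value over all 10 was 1.42 ± 0.58 (SE, 5 against 5, adjusted p = 0.425). Without DMM replicate 3, DMM replicate 5 or PBS replicates 1, 4 or 5 the call was lost, with adjusted p of 0.0531 to 0.0728.

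Slc7a7 pairs with Slc3a2 to let out lysine, arginine and ornithine, and its loss causes lysinuric protein intolerance (ENSMUSG00000000958, chromosome 14, 54369442 to 54417780). Its CPM were 49.8, 51.8, 75.2, 37.6 and 41.9 in PBS kidneys 1 to 5 and 41.7, 81.5, 97.3, 50.1 and 104 in DMM kidneys 1 to 5. DMM kidney 4 lay within the PBS range. Slc7a7 rose by 0.88 ± 0.22 (SE, 4 mice against 4, adjusted p = 0.0492, and 0.55 ± 0.27 over all 10, adjusted p = 0.493) over the 8 libraries, just past the threshold, and the call was kept on leaving out DMM replicate 4. Without any of the 7 others the adjusted p was 0.0896 to 0.159. It overlaps Oxa1l on the opposite strand.

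The other 3 let out neutral amino acids. Slc43a2, a uniporter of branched-chain amino acids and methionine, was at 0.57 ± 0.14 (SE, 4 mice against 4, adjusted p = 0.0429) on the log2 scale, under the fold threshold, and it overlaps Gm45606 on the opposite strand. Slc16a10, which lets out aromatic amino acids, had 0.43 ± 0.14 (SE, 4 mice against 4, adjusted p = 0.113). Slc7a8, an exchanger that pairs with Slc3a2, had 0.34 ± 0.09 (SE, 4 mice against 4, adjusted p = 0.0640). For all 3, the 4 DMM kidneys of the authors' table were above the 4 PBS kidneys, with mean CPM of 132 ± 4.51 and 104 ± 5.41 (SD) for Slc7a8. Over all 10 libraries the log2 fold changes were 0.36, 0.24 and 0.23 in the same order.

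Peptide carriers gave the single fall. Slc15a3 moves histidine and small peptides out of lysosomes and endosomes and is known mainly from macrophages and other immune cells (ENSMUSG00000024737, chromosome 19, 10839727 to 10859362). Its CPM were 62.8, 70.9, 51.4, 73.8 and 89.1 in PBS kidneys 1 to 5 and 77.95, 38.4, 27.996, 46.1 and 27.8 in DMM kidneys 1 to 5. The 4 DMM kidneys other than kidney 1 were below every PBS kidney, and PBS kidney 3 was the lowest of its group. Slc15a3 fell over the 8 libraries, with a log2 fold change of -1.08 ± 0.19 (SE, 4 mice against 4, adjusted p = 0.0130), whichever library was left out. Over all 10 it was -0.67 ± 0.28 (SE, 5 against 5, adjusted p = 0.428). It overlaps Tmem132a on the opposite strand.

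The other peptide carriers did not pass. Slc15a2, the high-affinity carrier that reclaims peptides in the kidney, had CPM of 58.1, 45.6, 80.6, 23.2 and 22.8 in PBS kidneys 1 to 5 and 27.5, 54.9, 67.5, 35.3 and 77.02 in DMM kidneys 1 to 5. PBS kidneys 1 and 2 lay within the DMM range, PBS kidney 3 above it and kidneys 4 and 5 below every DMM kidney, and the log2 fold change was 0.65 ± 0.35 (SE, 4 mice against 4, adjusted p = 0.330, and 0.19 ± 0.39 over all 10, adjusted p = 0.854). Slc15a4, which shares the endosomal site of Slc15a3, had -0.19 ± 0.13 (SE, 4 mice against 4, adjusted p = 0.442, and -0.12 ± 0.13 over all 10, adjusted p = 0.713) and overlaps Glt1d1 on the opposite strand. Slc15a1, the low-affinity carrier of the intestine and early proximal tubule, was at 0.144 FPKM, and Slc15a5 was too low to be tested. The median of the 4 tested was 0.09, and -0.03 over all 10.

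Carriers that feed growth and answer stress went both ways. Of 13 tested, 1 rose (Slc7a12) and 0 fell over the 8 libraries. The log2 fold changes ran from -0.60 to 1.53, with a median of -0.01, and 0.01 over all 10. The group holds Slc7a5 for large neutral amino acids, Slc1a5 and Slc38a2 for glutamine, and Slc7a1 for arginine and lysine. Their log2 fold changes over the 8 were -0.31, -0.17, 0.01 and 0.10, with adjusted p of 0.237, 0.693, 0.986 and 0.787. These 4 were named after their values were seen.

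Slc7a12 is a light chain of the neutral amino acid exchangers whose heavy chain is unknown (ENSMUSG00000039710, chromosome 3, 14480697 to 14505830). Its CPM were 29.3, 26.8, 46.8, 19.6 and 21.3 in PBS kidneys 1 to 5 and 23.6, 38.1, 92.4, 65.8 and 78.9 in DMM kidneys 1 to 5. DMM kidney 2 lay below PBS kidney 3, and DMM kidney 1 among the PBS kidneys. Slc7a12 rose by 1.50 ± 0.26 (SE, 4 mice against 4, adjusted p = 0.0124) over the 8, and the value over all 10 was 1.05 ± 0.36 (SE, 5 against 5, adjusted p = 0.387). The call was lost without PBS replicate 4 or PBS replicate 5, with adjusted p of 0.0502 and 0.0563.

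Slc1a4, an exchanger of alanine, serine and cysteine, passed the adjusted p but not the fold threshold, at 0.57 ± 0.12 (SE, 4 mice against 4, adjusted p = 0.0251, and 0.41 ± 0.16 over all 10, adjusted p = 0.408). Its 4 DMM kidneys of the authors' table were tightly grouped at 39.6 ± 1.94 CPM, against 26.7 ± 3.14 (SD) in the 4 PBS kidneys. DMM kidney 1 had 23.9. Without DMM replicate 4 Slc1a4 passed the fold threshold too, at 0.59. Slc7a11, the cystine and glutamate exchanger that supplies glutathione synthesis, was singled out after its values were seen. Its CPM were 1.96, 1.77, 2.53, 15.1 and 4.76 in PBS kidneys 1 to 5 and 4.32, 1.83, 2.78, 62.4 and 1.40 in DMM kidneys 1 to 5. DMM kidney 4 and, less so, PBS kidney 4 were far above the rest. The positive log2 fold change of 1.53 ± 1.27 over the 8 libraries (adjusted p = 0.533) rests on DMM kidney 4. DMM kidneys 2, 3 and 5 lay below the mean of the 4 PBS kidneys of that set, 5.89 CPM.

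Glutamate carriers of the nervous system were scarce. Slc1a2 and Slc1a3, which clear glutamate around synapses, had means of 0.916 and 0.379 FPKM. The Slc1a2 CPM were 7.20, 10.7, 11.97, 7.34 and 14.4 in PBS kidneys 1 to 5 and 11.2, 10.2, 10.1, 27.5 and 10.6 in DMM kidneys 1 to 5. Only DMM kidney 4 stood out, and the log2 fold change was 0.56 ± 0.39 (SE, 4 mice against 4, adjusted p = 0.449, and 0.43 ± 0.32 over all 10, adjusted p = 0.594). That of Slc1a3 was 0.04 ± 0.46 over the 8 libraries and -0.16 ± 0.40 over all 10, a sign that turned with the libraries and, over the 8, with scaling by library size alone. Neither passed.

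Carriers of osmolytes, creatine and neurotransmitters gave 0 calls among 5 tested members over the 8 libraries, with 1 higher (Slc6a13) at an unadjusted p under 0.05 and by DESeq2. The median log2 fold change was 0.51, and 0.40 over all 10. Slc6a6 supplies taurine, an osmolyte of the medulla and a brush border substrate. Its CPM were 504, 488, 586, 445 and 556 in PBS kidneys 1 to 5 and 451, 588, 759, 467 and 779 in DMM kidneys 1 to 5. DMM kidneys 2, 3 and 5 were above every PBS kidney, kidney 2 by little, and DMM kidneys 1 and 4 were not, and the log2 fold change was 0.38 ± 0.18 (SE, 4 mice against 4, adjusted p = 0.260, and 0.24 ± 0.18 over all 10, adjusted p = 0.590).

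Slc6a8, the creatine carrier, had CPM of 178, 189.8, 193, 153 and 175 in PBS kidneys 1 to 5 and 175, 250.01, 272, 219.8 and 253 in DMM kidneys 1 to 5. Except for DMM kidney 1, every DMM kidney was above every PBS kidney. Its log2 fold change of 0.51 ± 0.12 (SE, 4 mice against 4, adjusted p = 0.0320) passed the adjusted p but not the fold change of 1.5, and the value over all 10 was 0.40 ± 0.13 (SE, 5 against 5, adjusted p = 0.385). Slc6a13, a carrier of betaine, taurine and GABA in the proximal tubule, had 1.09 ± 0.30 (SE, 4 mice against 4, adjusted p = 0.0629, and 0.57 ± 0.38 over all 10, adjusted p = 0.566) over the 8. Its DMM kidney 4, at 24.8 CPM, lay within the PBS range, and Slc6a13 passed by edgeR without that library, at 1.31.

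The monocarboxylate family held 6 of the 15 members that rose. Of 13 tested, Slc16a4, Slc16a5, Slc16a7, Slc16a9, Slc16a12 and Slc16a14 rose over the 8 libraries and 0 fell. The median log2 fold change was 0.37, and 0.36 over all 10. The family takes its name from carriers of lactate and pyruvate, but several members move other substrates or have none assigned. Their summed CPM were 461, 481, 682, 419 and 454 in PBS kidneys 1 to 5 and 443, 641, 641, 802 and 696 in DMM kidneys 1 to 5. DMM kidney 4 had the highest sum, unlike for the brush border carriers.

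Slc16a4, a member with no well-known substrate, had CPM of 13.2, 13.4, 44.3, 5.64 and 9.24 in PBS kidneys 1 to 5 and 10.99, 29.4, 41.03, 31.3 and 49.97 in DMM kidneys 1 to 5 (ENSMUSG00000027896, chromosome 3, 107291230 to 107312115). PBS kidney 3 was far above the other PBS kidneys. Slc16a4 rose by 1.87 ± 0.29 (SE, 4 mice against 4, adjusted p = 0.00848) over the 8 libraries, and the value over all 10 was 0.92 ± 0.54 (SE, 5 against 5, adjusted p = 0.533). Slc16a9, linked to carnitine export, had CPM of 27.96, 25.5, 58.8, 15.1 and 22.6 in PBS kidneys 1 to 5 and 17.04, 52.4, 68.5, 47.8 and 83.2 in DMM kidneys 1 to 5 (ENSMUSG00000037762, chromosome 10, 70245100 to 70285968). PBS kidney 3 was above DMM kidneys 2 and 4, and Slc16a9 rose by 1.46 ± 0.24 (SE, 4 mice against 4, adjusted p = 0.00942, and 0.84 ± 0.42 over all 10, adjusted p = 0.495). Slc16a14, whose substrates are little known, had CPM of 7.89, 9.06, 19.1, 4.63 and 5.9999 in PBS kidneys 1 to 5 and 7.72, 18.5, 15.2, 30.02 and 23.6 in DMM kidneys 1 to 5 and rose by 1.66 ± 0.28 (SE, 4 mice against 4, adjusted p = 0.0105, and 1.02 ± 0.42 over all 10, adjusted p = 0.428). These 3 passed whichever of the 8 libraries was left out, and the scaling alternatives did not end their calls.

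The other 3 calls rested on more of the libraries. Slc16a12, which carries creatine and its precursor, had CPM of 83.7, 83.9, 109, 67.1 and 76.9 in PBS kidneys 1 to 5 and 76.2, 117, 116, 152 and 118 in DMM kidneys 1 to 5. It rose by 0.69 ± 0.13 (SE, 4 mice against 4, adjusted p = 0.0178, and 0.46 ± 0.18 over all 10, adjusted p = 0.413) and lost the call without PBS replicate 4 or 5, with adjusted p of 0.0613 and 0.0702. Slc16a7, a high-affinity carrier of pyruvate and lactate, had CPM of 58.4, 42.5, 97.2, 38.6 and 38.8 in PBS kidneys 1 to 5 and 53.2, 67.2, 73.7, 148 and 78.5 in DMM kidneys 1 to 5. DMM kidney 4 was far above the others of its group, and Slc16a7 rose by 1.04 ± 0.27 (SE, 4 mice against 4, adjusted p = 0.0497, and 0.61 ± 0.32 over all 10, adjusted p = 0.513). The call was lost without DMM replicates 3 or 5 or any PBS replicate of the 8, with adjusted p of 0.0636 to 0.153, and with RLE scaling.

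Slc16a5, known to carry drugs such as bumetanide, had mean CPM of 22.6 ± 3.82 in the 4 DMM kidneys and 12.5 ± 2.71 (SD) in the 4 PBS kidneys. It rose by 0.85 ± 0.20 (SE, 4 mice against 4, adjusted p = 0.0364, and 0.61 ± 0.21 over all 10, adjusted p = 0.387), but the call was lost without any library except DMM replicate 4, with adjusted p of 0.0534 to 0.125. It overlaps Gm11695 on the opposite strand. The best-known lactate carriers did not pass, and they were named after their values were seen. Slc16a1 was at 0.19 ± 0.16 (SE, 4 mice against 4, adjusted p = 0.555, and 0.05 ± 0.16 over all 10, adjusted p = 0.905) on the log2 scale and Slc16a3, the exporter of glycolytic cells, at -0.55 ± 0.39 (SE, 4 mice against 4, adjusted p = 0.468, and -0.50 ± 0.32 over all 10, adjusted p = 0.557).

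Lysosomal and less known carriers gave 1 call among 11 tested, a rise of Slc6a17 over the 8 libraries. The median log2 fold change was -0.0026, and 0.02 over all 10. Slc6a17 is best known as a carrier of neutral amino acids into synaptic vesicles. Its CPM were 23.2, 22.5, 25.1, 21.4 and 22.1 in PBS kidneys 1 to 5 and 23.1, 31.9, 35.9, 33.8 and 33.9 in DMM kidneys 1 to 5. The values were tight in both groups, with DMM kidney 1 among the PBS kidneys, and Slc6a17 rose by 0.60 ± 0.10 (SE, 4 mice against 4, adjusted p = 0.0110). Being close to the fold threshold, it was under it without DMM replicate 3 or PBS replicate 4, and its adjusted p was 0.0532 without PBS replicate 5. Over all 10 the value was 0.47 ± 0.13 (SE, 5 against 5, adjusted p = 0.378).

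Slc6a15, a carrier of branched-chain amino acids and proline known from neurons, was the one member whose groups did not overlap over all 10 libraries. Its CPM were 22.9, 39.3, 38.6, 29.7 and 36.9 in PBS kidneys 1 to 5 and 39.9, 49.9, 49.8, 69.1 and 44.3 in DMM kidneys 1 to 5. The lowest DMM kidney was kidney 1 and the highest PBS kidney was kidney 2, less than 1 CPM apart. The log2 fold change was 0.60 ± 0.18 (SE, 5 against 5, adjusted p = 0.378) over the 10 and 0.72 ± 0.20 (SE, 4 mice against 4, adjusted p = 0.0664) over the 8, and neither passed by edgeR. DESeq2 passed it over the 8, with 0.72 and an adjusted p of 0.0183. Slc38a9, the lysosomal sensor of arginine for the kinase mTOR, was at 0.10 ± 0.16 on the log2 scale over the 8 and was named after its value was seen. Slc7a6os, which is no transporter, had -0.15 ± 0.17 (SE, 4 mice against 4, adjusted p = 0.654, and -0.15 ± 0.14 over all 10, adjusted p = 0.661).

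**Figure D2:**
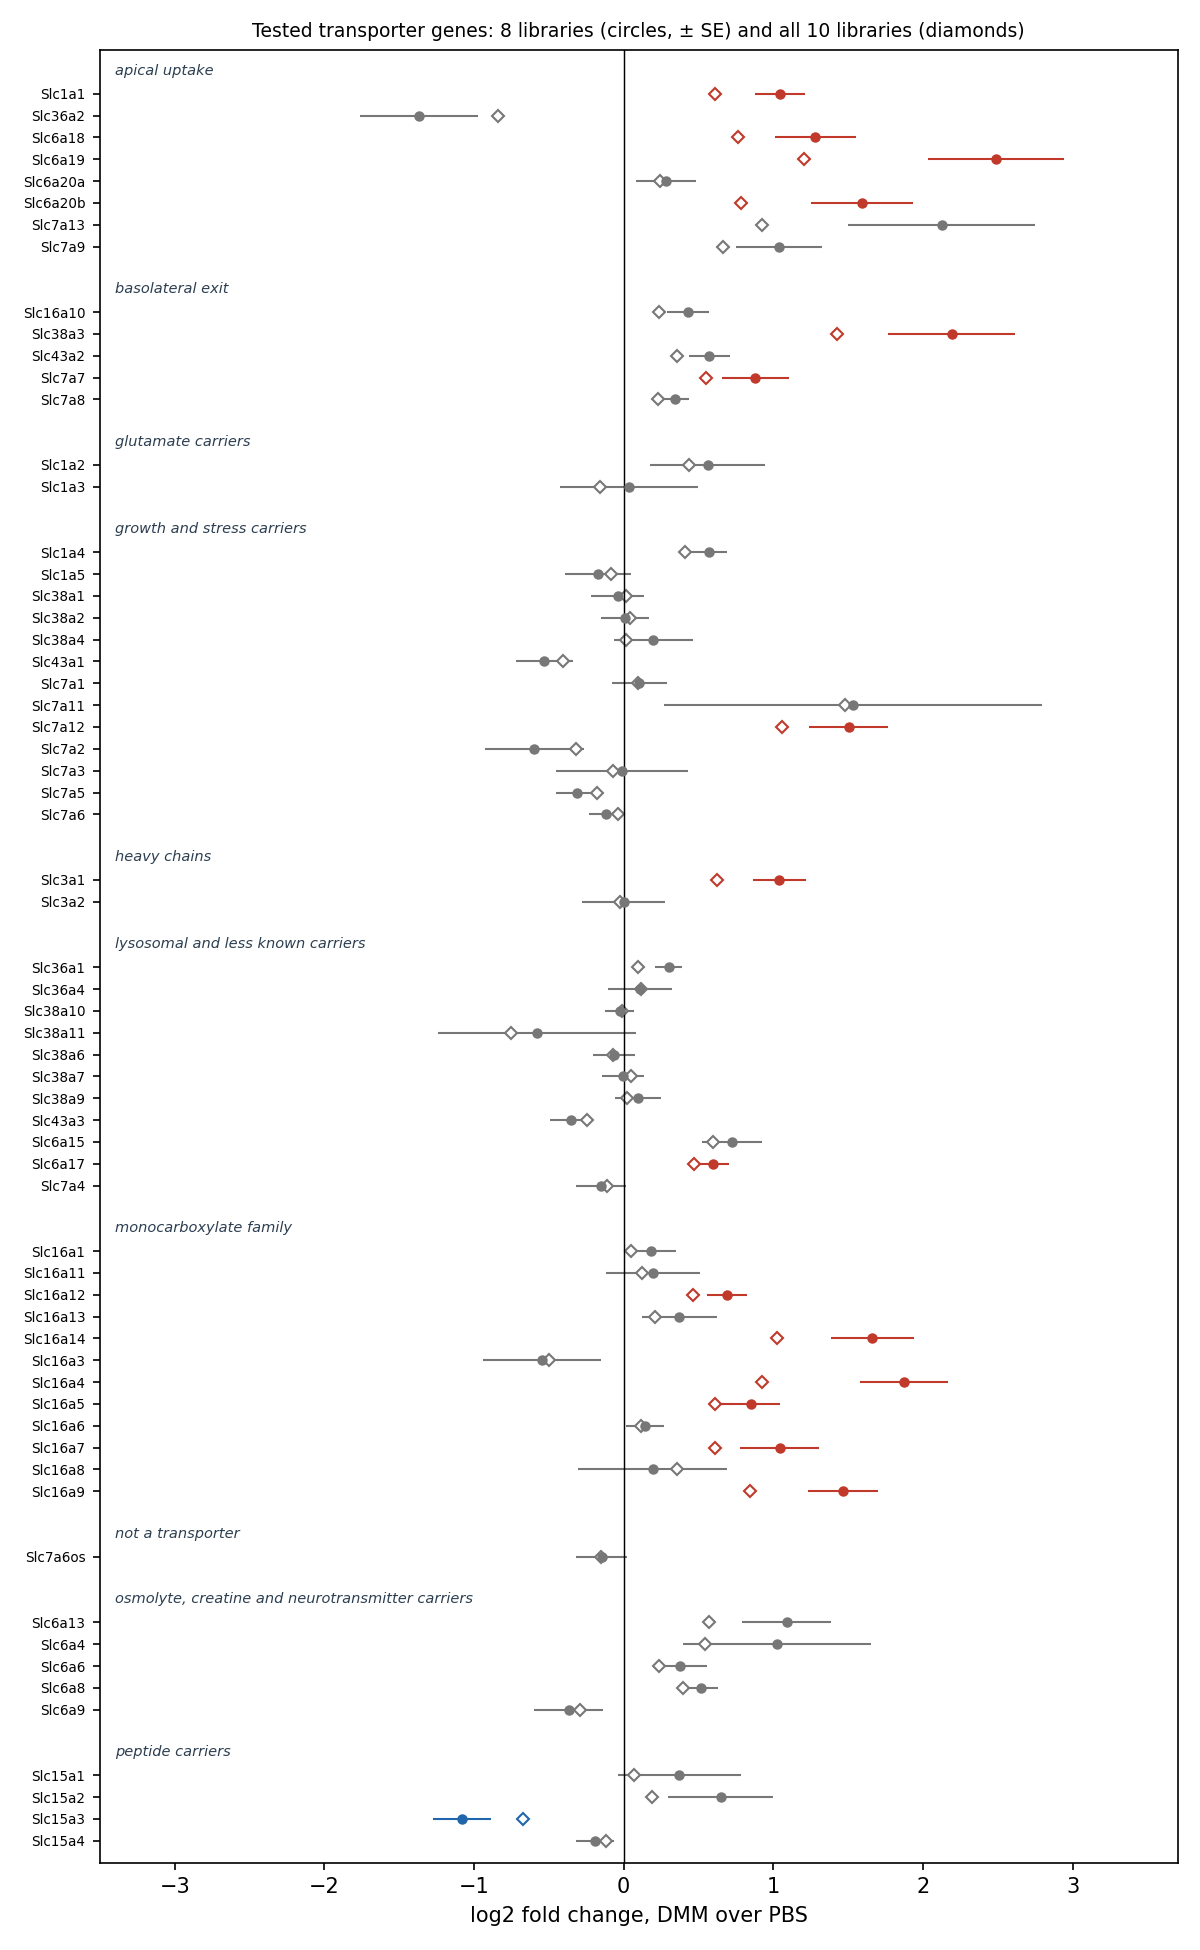
Log2 fold change of DMM over PBS for 63 tested members, grouped by role, over 8 libraries (circles, ± SE) and over all 10 (diamonds); red and blue mark the members called higher and lower over the 8 libraries. The brush border and monocarboxylate groups hold 10 of the 15 red members, and diamonds lie nearer to 0 than circles for all of the red members.

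Genes that work with the transporters were looked at as a list of their own. Of 15 partners and luminal peptidases tested, 6 rose over the 8 libraries and 0 fell, with a median log2 fold change of 0.61, and 0.45 over all 10. Cltrn encodes collectrin, which Slc6a18 and Slc6a19 need to reach the brush border. Its CPM were 207, 222, 459.6, 105 and 172 in PBS kidneys 1 to 5 and 156, 419, 421, 247 and 484 in DMM kidneys 1 to 5. Of DMM kidneys 2 to 5, kidney 4 was the lowest and PBS kidney 3 lay above it, as for Slc6a18. Cltrn rose by 1.16 ± 0.27 (SE, 4 mice against 4, adjusted p = 0.0376, and 0.57 ± 0.40 over all 10, adjusted p = 0.576), and the call was lost without any library except DMM replicate 4, with adjusted p of 0.0679 to 0.121.

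Ggt1, which splits glutathione in the lumen and so frees amino acids, rose by 1.23 ± 0.25 (SE, 4 mice against 4, adjusted p = 0.0233, and 0.70 ± 0.37 over all 10, adjusted p = 0.512), lost without DMM replicates 3 or 5 or PBS replicate 5 (adjusted p of 0.0674 to 0.0911). Mep1a, a brush border protease, rose by 0.92 ± 0.23 (SE, 4 mice against 4, adjusted p = 0.0489, and 0.46 ± 0.32 over all 10, adjusted p = 0.582), lost without any library except DMM replicate 4 (adjusted p of 0.0768 to 0.140). Other peptidases of the brush border did not pass. Mep1b at 1.92 ± 0.54 (SE, 4 mice against 4, adjusted p = 0.0693, and 0.80 ± 0.73 over all 10, adjusted p = 0.665) and Mme at 0.61 ± 0.19 (SE, 4 mice against 4, adjusted p = 0.0921, and 0.45 ± 0.19 over all 10, adjusted p = 0.429) were past 1.5-fold at an unadjusted p under 0.05, with no overlap of the groups over the 8. Nearer to 0 were Anpep at -0.02 ± 0.14, Enpep at 0.18 ± 0.11 and Dpp4 at 0.21 ± 0.18.

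The pair of sodium-coupled lactate carriers of the proximal tubule rose too over the 8 libraries. Slc5a12 had CPM of 50.4, 43.5, 132, 17.6 and 30.7 in PBS kidneys 1 to 5 and 23.2, 115, 161, 130.2 and 209 in DMM kidneys 1 to 5, and it rose by 2.11 ± 0.33 (SE, 4 mice against 4, adjusted p = 0.00812). Slc5a8 rose by 1.31 ± 0.18 (SE, 4 mice against 4, adjusted p = 0.00495). Both passed whichever of the 8 libraries was left out, and over all 10 they had 1.22 ± 0.59 (SE, 5 against 5, adjusted p = 0.482) and 0.76 ± 0.35 (SE, 5 against 5, adjusted p = 0.459). Bsg and Emb, the escorts of lactate carriers in the Slc16 family, did not pass. Bsg was at 0.09 ± 0.12 (SE, 4 mice against 4, adjusted p = 0.723, and 0.04 ± 0.11 over all 10, adjusted p = 0.878). Emb was at 0.53 ± 0.16 (SE, 4 mice against 4, adjusted p = 0.0813, and 0.42 ± 0.14 over all 10, adjusted p = 0.385). For Emb the groups did not overlap in either set, by little over all 10, with DMM kidney 1 at 53.5 CPM and PBS kidney 3 at 53.1.

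Among 14 regulators tested, 2 rose over the 8 libraries and 0 fell, with a median of 0.25, and 0.18 over all 10. Hnf4a, a transcription factor of the differentiated proximal tubule, had CPM of 243, 262, 407, 168 and 275 in PBS kidneys 1 to 5 and 215, 409, 448, 384 and 500.4 in DMM kidneys 1 to 5. It rose by 0.88 ± 0.17 (SE, 4 mice against 4, adjusted p = 0.0194, and 0.53 ± 0.26 over all 10, adjusted p = 0.482), and the call was lost without DMM replicates 3 or 5 or PBS replicates 1 or 2, with adjusted p of 0.0512 to 0.0642. Mtor, the kinase that amino acids activate, rose by 0.66 ± 0.15 (SE, 4 mice against 4, adjusted p = 0.0308, and 0.44 ± 0.18 over all 10, adjusted p = 0.430). Its fold change was under 1.5 without DMM replicate 4, and of the other 7 libraries leaving out each but DMM replicate 2 ended the call, with adjusted p of up to 0.104. Hnf4a and Mtor overlap Hnf4aos and Angptl7 on the opposite strand.

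Atf4, the factor of the amino acid shortage response, had CPM of 109, 121, 104, 132 and 124 in PBS kidneys 1 to 5 and 109.7, 122, 91.02, 40.2 and 101 in DMM kidneys 1 to 5. DMM kidney 4 was far below the others, and the log2 fold change was -0.46 ± 0.28 (SE, 4 mice against 4, adjusted p = 0.397, and -0.35 ± 0.24 over all 10, adjusted p = 0.571). Of the genes known to respond to Atf4, Asns, Chac1, Trib3 and Ddit3 had 0.29, 0.48, -0.35 and -0.73 over the 8 libraries. Over all 10 they had 0.22, 0.52, -0.29 and -0.53, and none of these passed by edgeR. Ddit3 was past 1.5-fold at an unadjusted p under 0.05 over the 8 (adjusted p = 0.0542), with no overlap of the groups.

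Sequence before the start of the genes was searched for letters read by Hnf4 and Atf4 proteins and by factors of the interferon response. RefSeq sequences of build GRCm38.p6, the same assembly as mm10, held 80 windows of 250 bases upstream of a start for 59 of the 83 members, among them 10 of the 15 that rose. Both strands were searched, and the motifs were not checked for overlap with others. The letters CAAAGTCCA, read by Hnf4 proteins, occur in 0.384% of all 32851 windows and in 1 of the 80 member windows (1.25%), that of Slc3a1. Its window is chr17:85028097-85028346 on the plus strand, with the match in capitals:

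Slc3a1: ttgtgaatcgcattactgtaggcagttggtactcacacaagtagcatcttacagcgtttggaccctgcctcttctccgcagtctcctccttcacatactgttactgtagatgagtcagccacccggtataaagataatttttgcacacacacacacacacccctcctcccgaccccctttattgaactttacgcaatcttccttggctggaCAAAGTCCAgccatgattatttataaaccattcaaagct

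TGATGNAA, the core read by Atf4 with its partners, was in 3.45% of all windows and in 4 of the 80 member windows (5%). These belong to 3 members (Slc6a21, Slc7a7 and Slc7a11). Of these, Slc7a7 is among the 10. The interferon-stimulated response element (GAAA, any 2 letters, then GAAA again) was in 2.98% of all windows and in 0 of the 80 member windows. Slc15a3 has no entry. A match describes letters and does not show that a factor binds there.

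Marker genes of cell types were looked at beside the transporters. Of 12 proximal tubule markers, 5 rose over the 8 libraries (Lrp2, Cubn, Slc4a4, Slc17a1 and Slc17a3) and 0 fell, with a median log2 fold change of 1.52, and 0.75 over all 10. Their summed CPM were 2336, 2425, 5691, 1069 and 1892 in PBS kidneys 1 to 5 and 1781, 4586, 5451, 5617 and 6335 in DMM kidneys 1 to 5. Lrp2, the endocytic receptor megalin, gave the most over the 10 kidneys together, but Slc34a1 was above it in 5 of them, and 0 of the 12 had at most 3 counts in every library. PBS kidney 3 and DMM kidney 1 lay with the other group here too, as they did for the brush border carriers. In DMM kidney 4 most of the sum came from Lrp2, Slc4a4 and Cubn, at 2504, 1139 and 526 CPM. Aqp1, Slc34a1, Slc5a2 and Miox, at 195, 474, 36.4 and 87.2 there, lay within the range of PBS kidneys 1, 2, 4 and 5. For 8 of the 12 markers every DMM kidney of the 8 libraries was above every PBS kidney. What part of the rise in transporters goes with the amount of proximal tubule RNA was not tested.

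Other tubule segments differed in their calls. Of 5 tested markers of the loop and distal tubule, 4 rose (Slc12a1, Slc12a3, Calb1 and Kcnj1) over the 8 libraries, with a median of 0.95, and 0.61 over all 10. Of 7 of the collecting duct 1 rose (Slc4a1), with a median of 0.58, and 0.37 over all 10. Over all 10, 0 markers of any list passed. Pvalb and Avpr2 were too low to be tested. The 6 markers of injured tubules gave 0 calls and a median of 0.08 (0.16 over all 10). Those of podocytes and endothelium gave 0 calls and medians of -0.04 and 0.03 (0.09 and 0.05 over all 10). The share of counts from mitochondrial genes was 2.14%, 2.30%, 3.66%, 1.97% and 2.004% in PBS kidneys 1 to 5 and 2.30%, 3.79%, 4.03%, 5.62% and 4.39% in DMM kidneys 1 to 5. It too was high in PBS kidney 3 and low in DMM kidney 1.

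Beside the fall of Slc15a3 stand the immune markers. All 7 interferon response genes fell over the 8 libraries, with a median log2 fold change of -3.61, and -2.06 over all 10. Their summed CPM were 2965, 1649, 2063, 2894 and 2736 in PBS kidneys 1 to 5 and 2091, 267, 239, 243 and 201 in DMM kidneys 1 to 5. Irf7 gave the most over the 10 kidneys together, but Ifit3 was above it in 6. Here DMM kidney 1 was at the level of the PBS kidneys, and PBS kidney 3 was not at that of the other DMM kidneys. Of 7 macrophage and monocyte markers, 3 fell (Cd68, C1qb and Ly6c2), with a median of -0.97 (-0.72 over all 10) and summed CPM of 1304, 1142, 1041, 1203 and 1391 in PBS kidneys 1 to 5 and 1084, 783, 631, 578 and 658 in DMM kidneys 1 to 5. C1qb gave the most of that list over all kidneys, with Csf1r above it in 4. The part of macrophage RNA or of the interferon response in the fall of Slc15a3 was not tested.

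The remaining lists were more mixed. Of 6 fibroblast markers, 2 fell (Col1a2 and Postn), with a median of -1.04 (-0.55 over all 10), and of 7 T and NK cell markers 1 fell (Cd4), with a median of -1.19 (-0.91 over all 10). B cell, neutrophil and dividing cell markers gave 0 calls by edgeR among 4 tested genes each, with medians of -0.70, 0.05 and 0.11, or -0.30, 0.10 and 0.12 over all 10. The 5 red blood cell genes also gave 0 calls by edgeR, but all 5 were higher at an unadjusted p under 0.05 in both sets, with a median of 1.78 over the 8 and 1.58 over all 10. Fat markers summed to 27.4 CPM in PBS kidney 4, 6.12 in PBS kidney 2 and 2.01 or less elsewhere. Dividing cell markers summed to 777 CPM in DMM kidney 4 and to between 91.5 and 214 in the 9 others. Most of the 777 came from Mki67 and Top2a, at 513 and 231 CPM. Ccnb1 was at 22.4 CPM in that kidney, and Cdk1, at 11.48, was below every PBS kidney.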

How the data were processed

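The authors sequenced mRNA libraries of 10 obstructed kidneys, made from 1.5 µg of RNA each, and aligned the reads to mm10, with HISAT2 (2.0.5) in the submitters' notes. The deposited counts are raw reads per gene. Counter, annotation release and strand setting are not given in the sources used here. The deposited FPKM values are counts over the deposited gene length and a scaled total of the library. The authors' group means, a signal of counts divided by DESeq2 size factors, served only to see which libraries enter them. The deposited log2 fold change and p-value of the authors' DESeq2 comparison were not used, and 0 per-sample columns were left out.

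Counts were filtered by edgeR's filterByExpr, scaled by TMM and tested over all genes by edgeR's quasi-likelihood F test, DMM against PBS with no block (R 4.3.3, edgeR 4.0.16, limma 3.58.1). A call needs a Benjamini-Hochberg adjusted p below 0.05 and more than 1.5-fold. Adjusted p-values are from edgeR unless DESeq2 (1.42.0) is named. SE is the log2 fold change over the square root of its F statistic. CPM come from the scaling of all 10 libraries. Reads are not independent molecules, and total counts were 15722527 to 19475833. The steps were tested on simulated data, with 50 genes changed at each fold. Over the 8 libraries, changes of 1.5-, 2- and 3-fold were recovered for 4%, 38% and 82% of them. Over all 10 the shares were 2%, 40% and 74%. A gene that did not pass may therefore still differ. Alternatives were DESeq2, RLE or library size scaling, other filters and thresholds, protein-coding genes only, replicate blocks and leaving out each library.

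Members were found by name, and members and lists (9 roles, 2 pathways, 15 marker lists) were chosen with earlier results of these data known. Named with values were heavy chains, brush border and basolateral members, every other called member, members past 1.5-fold at an unadjusted p below 0.05 over all 10, the 5 of highest FPKM, the 2 of smallest p in each other role list, called pathway genes, Atf4 and Hnf4a. Some genes of these lists are not reported here. Figures were drawn with matplotlib (3.10.9).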

Additional observations from a re-analysis of the deposited data

Results flagged for a closer look

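In 11 of 82 groups of 5 kidneys (41 named genes in each treatment), a single kidney lay so far from the rest that its gap to the nearest one, as a share of the whole range, passed Dixon's limit of 0.71. Chance alone gives about 1 in 20 such groups, and genes of one library are not independent. PBS kidney 3 made up 6 of the 11, all with high values. Its gap was 0.841 for Slc6a19 (92.1 CPM against 7.87 to 21.2 in the other PBS kidneys), 0.800 for Slc16a4 (44.3 against 5.64 to 13.4), 0.727 for Slc7a13, 0.726 for Slc5a8, 0.723 for Slc6a18 and 0.714 for Slc5a12.

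DMM kidney 4 made up 3. The gap was 0.934 for Slc1a2 (27.5 CPM against 10.1 to 11.2), 0.733 for Slc16a7 (147.8 against 53.2 to 78.5) and 0.729 for Slc7a6os (14.4 against 21.05 to 23.5). DMM kidney 1 was low for Slc1a4 with a gap of 0.782 (23.9 against 37.8 to 41.7), and PBS kidney 5 was high for Slc6a20a with a gap of 0.779 (27.6 against 19.6 to 21.4). Slc7a11, named after its values were seen, is outside the 41. Its gap was 0.952 for DMM kidney 4 (62.4 against 1.40 to 4.32) and 0.774 for PBS kidney 4 (15.1 against 1.77 to 4.76). What sets these kidneys apart was not tested.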

How the results depend on the processing

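Over all 10 libraries, 0 members passed in either direction under DESeq2, the other scalings and filters, the replicate block and stricter thresholds. DESeq2 passed 0.0454% higher and 0.117% lower of the 30851 genes with any count. Past 1.5-fold at an unadjusted p below 0.05, 5 were higher and 1 lower. Without PBS replicate 3 and DMM replicate 1 together, 15 were higher and 1 lower. Leaving out 1 library at a time gave 0 higher and 0 to 1 lower, the 1 without DMM replicate 1 (2.60% of all genes). Over the 8 libraries, the count of higher members ran from 5 to 21 and of lower ones from 1 to 3 without 1 library, where the shares of all genes ran from 0.774% to 6.71% and from 1.63% to 7.61%. With DESeq2 the count was 19 and 2, and 749 and 911 of all genes passed, against 452 and 590 by edgeR. The 749 and 911 are 2.48% and 3.02% of the 30191 genes with any count. By edgeR the count of members was 3 and 0 at an adjusted p below 0.01 (0.441% and 1.32% of all genes). It was 19 and 2 at an unadjusted p below 0.05 (6.45% and 7.24%). It was 10 and 1 by library size alone (1.67% and 4.23%), 12 and 1 with no filter on low counts (1.35% and 1.82%) and 14 and 1 with RLE (2.80% and 3.46%). The replicate number as a block gave 0 and 0, in members and in all genes. Only numbers 2, 4 and 5 occur in both groups there, and same-number kidneys were no more alike than others (own number best in 1 of 5). The cause of that loss was not tested.

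Among the named genes and the members' medians, the directions that turned belong to 2 genes with values near 0. Some list medians near 0 also turned between the 8 libraries and all 10. That of the peptide carriers was 0.09 and -0.03, and that of podocyte markers -0.04 and 0.09. Over all 10 libraries, Slc1a3 (-0.16) was 0.0365 over the 8 and -0.41 to 0.0344 without 1 library, and Slc3a2 (-0.02) was -0.11 to 0.16. Over the 8, Slc1a3 (0.0365) was -0.0556 by library size alone, -0.22 with the block and -0.23 to 0.30 without 1 library. Slc3a2 (-0.0006) was 0.0014 with DESeq2, 0.0058 with RLE, 0.0041 among protein-coding genes and -0.14 to 0.24 without 1 library. The cause was not tested. Of the other values of named genes and of the members' medians under alternatives, 1228 kept direction and side of the threshold, 107 kept direction but lost the call and 35 gained it.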
